A study of Mus musculus with 10 samples.

Results

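The collagen genes of regenerating tibialis anterior (TA) muscle were followed in 10 male C57BL/6 mice aged 12 weeks. They were chosen as all protein-coding genes whose mouse symbol has the collagen form (Col, a number, a and a number) and that held at least 10 counts in at least 5 mice. This gave 44 genes of 25700 listed in the count files, and all 44 collagens of this form that the files list were kept. By the architecture of their proteins 11 are fibrillar, 6 are basement membrane collagens, 9 are FACITs (fibril-associated collagens with interrupted triple helices) and 18 belong to other classes. The gene nearest to the threshold was Col10a1, which held 10 counts in exactly 5 mice and from 3 to 13 counts per mouse, followed by Col6a4, which reached 10 counts in 7 mice, and none was left outside. The TA of every mouse had been injured by an intramuscular injection of cardiotoxin (CTX), a toxin that destroys myofibers, and whole muscle was taken at day 6 of regeneration. The control group consisted of 5 Pax7Cre mice, which carry the Cre recombinase in the Pax7 locus and are listed as wild type. The other group consisted of 5 miR-501KO mice, listed as miR-501 -/- and described as Pax7Cre littermates with a floxed, X-linked miR-501 gene (miR-501fl/Y). Pax7 drives Cre in muscle stem cells and their descendants, so cells outside this lineage, including the fibroblasts and endothelial cells that make most collagen, keep the microRNA gene, and both groups carry Cre and the injury. The microRNA gene itself was not among the genes counted, so the deletion was not checked here.

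Collagens are the main structural proteins of the extracellular matrix, each built from 3 chains wound into a triple helix. Fibrillar collagens assemble into the cable-like fibrils of endomysium, perimysium and tendon, type IV collagens form the sheet-like basement membrane around myofibers and capillaries, and FACITs sit on the surface of fibrils. After muscle injury, fibro-adipogenic progenitors (FAPs), the resident mesenchymal cells of muscle, multiply and deposit a transient matrix in which the new fibers form.

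The microRNA that was deleted and the perfect matches to its whole seed in collagen mRNAs are shown first, because the comparison of genotypes concerns this microRNA. Its 3p arm, mmu-miR-501-3p, is encoded on the minus strand of chromosome X (chrX:7241270-7241291, GRCm38.p6) and is given below from RefSeq, 5′ to 3′, with the seed, bases 2 to 8, in capitals. The perfect match to this seed, GGTGCAT on the sense strand, was searched in the longest 3′ untranslated region annotated for each gene in GENCODE M21 (GRCm38). It was present in 3 of 44 collagens, or 6.82%, with 1 site each, and in 7.08% of the 13975 genes tested that had an annotated region. The median length of the region was 1032.5 bases for the collagens and 1176 bases for the genes tested. The 3 sites follow with their flanks, the seed match in capitals. They lie in Col4a4 (basement membrane; chr1:82448883-82448907, minus strand), Col10a1 (chr10:34396558-34396582, plus strand) and Col26a1 (chr5:136742988-136743012, minus strand).
mmu-miR-501-3p: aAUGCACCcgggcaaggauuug
Col4a4: ggaactctgcgaGGTGCATtttaaa
Col10a1: gatatttctgatGGTGCATcactca
Col26a1: agctgaacagcgGGTGCATcctgaa
None of the highly expressed collagens held such a site. A shorter match to bases 2 to 7, GTGCAT, was present in 15 of 44 collagens (34.1%), Col1a1, Col1a2, Col5a1, Col6a3 and Col15a1 among them, and in 29.7% of the genes tested, and is not shown. A letter match says nothing of pairing in the tissue. Col26a1 stood at 22.3 ± 3.33 CPM (SD, n = 5; CPM is the read count scaled to a common library size) in Pax7Cre and 21.7 ± 0.637 (n = 5) in miR-501KO mice. Col4a4 stood at 1.42 ± 0.511 CPM and 1.55 ± 0.499 CPM (SD, n = 5 each), and Col10a1 at 0.405 ± 0.192 CPM and 0.401 ± 0.102 CPM (SD, n = 5 each).

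The 10 libraries held between 18609222 and 24753258 counts. Reads on collagens made up from 2.10% to 4.07% of all counts, with a mean of 3.22% ± 0.775 (SD, n = 5) in Pax7Cre and 3.16% ± 0.324 (n = 5) in miR-501KO mice. Both ends of this range were Pax7Cre animals, mouse 2 at the bottom and mouse 4 at the top, and the 5 miR-501KO mice lay between them. Fibrillar collagens took from 75.6% to 79.1% of the collagen counts, and Col1a1, Col1a2 and Col3a1 alone from 65.6% to 69.4%. Basement membrane collagens took from 4.62% to 7.55%, with Pax7Cre mouse 2 at the top of this range, FACITs from 2.76% to 3.61% and the other classes together from 13.1% to 15.4%.

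Levels were ranked between genes as CPM per kilobase of exon, since longer mRNAs collect more reads. Over the 10 mice Col1a1 was highest at 1108 CPM per kilobase, followed by Col3a1 at 797 and Col1a2 at 494, and these 3 kept this order in 10 of 10 mice. The order among them depended on the length used: with the longest annotated transcript in place of the union of all exons, Col3a1 came first at 1406 CPM per kilobase, Col1a1 second at 1227 and Col1a2 at 1148. Col6a1 (271 CPM per kilobase), Col5a1 (162), Col4a1 (142), Col5a2 (133), Col6a2 (123), Col6a3 (118) and Col4a2 (112) came next. With the longest transcript the order of this run was Col6a1 (289), Col6a2 (208), Col5a2 (193), Col5a1 (164), Col4a1 (160), Col6a3 (139.9) and Col4a2 (115). With the union of exons, Col4a1 exceeded Col5a2 in 6 of 10 mice, so these neighbours were not separated beyond the spread between mice. The levels then fell to 50.5 CPM per kilobase for Col5a3 and ended near 0.07 for Col2a1, Col4a3 and Col4a6, a span of more than 4 orders of magnitude. Of the 44 genes, 17 had a mean of at least 100 CPM and 18 had less than 10 CPM.

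**Figure D1:**
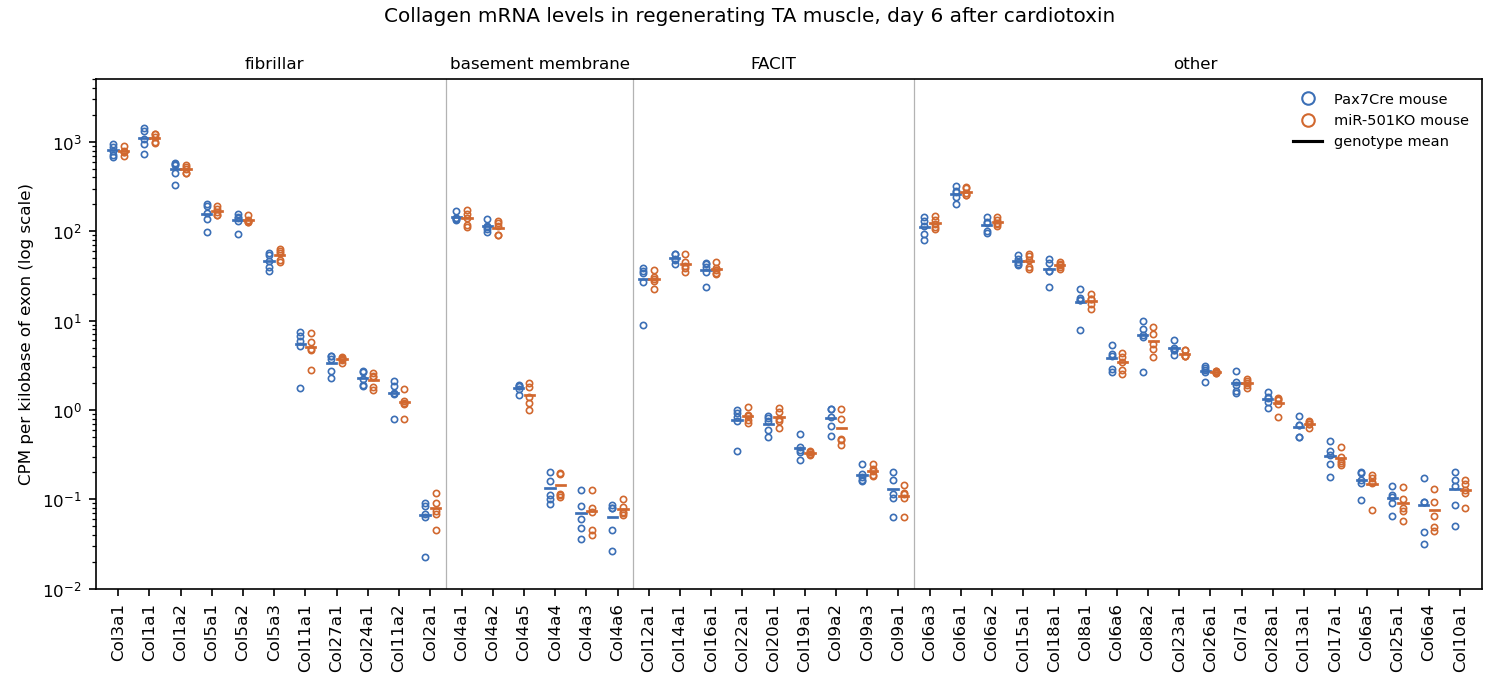
Level of each of the 44 collagens as CPM per kilobase of exon (log axis), with 1 open circle per mouse (blue, 5 Pax7Cre; orange, 5 miR-501KO) and a bar at the mean of each genotype. Col1a1, Col3a1 and Col1a2 stand highest, each class spans several orders of magnitude, and the circles of both genotypes overlap for every gene.

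The comparison of miR-501KO with Pax7Cre mice asked whether loss of the microRNA in the myogenic lineage changed collagen mRNA in the whole muscle. No collagen passed the test between the genotypes. In edgeR's quasi-likelihood test over 14410 genes, 43 collagens could be tested (Col10a1 was too low), 0 passed an adjusted p of 0.05 (background over all genes 0%), and 0 reached an unadjusted p of 0.05. The adjusted p was 0.99998 for every collagen tested, and single genes are given below with the exact two-sided permutation test on CPM, whose smallest p for 5 against 5 is 0.00794. Over all genes 0.382% were higher and 0.666% lower in miR-501KO at that unadjusted threshold, so a count of 0 among 43 lies near the background and is no result particular to collagens. In a fit with the mouse number as a second factor, 3 collagens reached an unadjusted p of 0.05 (edgeR), beside 1.31% of all genes. The values of the genotypes overlapped for 44 of 44 collagens, and they were separate for 0.139% of all genes tested. The log2 fold change (miR-501KO over Pax7Cre) was above 0 for 22 collagens and below 0 for 21, with a median of 0.0013, beside −0.0042 for all genes tested. For the 17 collagens at 100 CPM or more the log2 fold changes ran from −0.21 to 0.23, and their 95% intervals lay between −0.63 and 0.66. These outer limits belong to Col12a1, and the narrowest interval of the 17 was that of Col15a1, from −0.26 to 0.27. Leaving out single mice moved the median of all collagens between −0.06 and 0.05, with −0.06 without Pax7Cre mouse 2. In whole muscle, fewer cells of a type and less RNA per cell cannot be told apart.

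**Figure D2:**
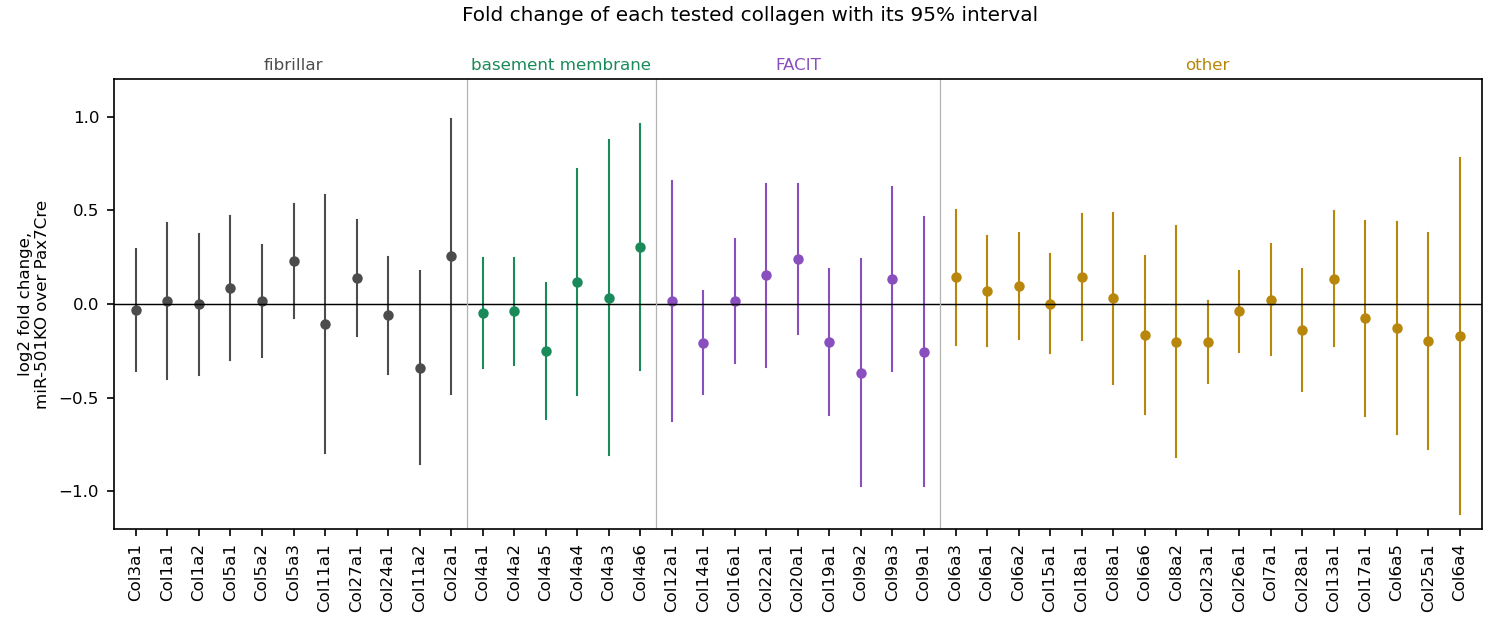
Log2 fold change of each of the 43 tested collagens, miR-501KO over Pax7Cre (points), with the 95% interval of edgeR's fit (bars), ordered within each class by mean CPM. Every interval includes 0, and among the genes at 100 CPM or more the widest is that of Col12a1, from −0.63 to 0.66.

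Fibrillar collagens. Col1a1 and Col1a2 encode the chains of type I collagen, the main collagen of mature connective tissue, and Col3a1 encodes type III collagen, which is abundant in early scar and in the endomysium. Col1a1 (chr11:94936224-94953042, GRCm38) stood at 6147, 4795, 7056.5, 9450 and 8746 CPM in Pax7Cre mice 1 to 5 and at 6517, 7950, 7530, 6435 and 8115 CPM in miR-501KO mice 1 to 5. The miR-501KO mice all lay inside the range of the controls, whose lowest animal was mouse 2 and whose highest was mouse 4. The log2 fold change was 0.01 (SE 0.192, edgeR p = 0.943; exact two-sided permutation p = 0.952). Col3a1 stood at 6674, 7073, 9389, 7795 and 8634 CPM in Pax7Cre and at 6868, 7657, 8783, 7539 and 7798 CPM in miR-501KO mice, a log2 fold change of −0.03 (SE 0.15, exact permutation p = 0.77). Col1a2 stood at 5580, 4122, 6784, 7192 and 7040 CPM in Pax7Cre and at 5559, 6165, 6897, 5523 and 6513 CPM in miR-501KO mice, with a log2 fold change of 0.00 (SE 0.173, exact permutation p = 0.984). The miR-501KO mice fell within the control range for both of these genes too, and the spread was wider among the controls for all 3.

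Col5a1, Col5a2 and Col5a3 encode type V collagen, which sits inside type I fibrils and sets their diameter. Their means were 1337 ± 357, 1273 ± 233 and 317 ± 60.7 CPM (SD, n = 5) in Pax7Cre and 1418 ± 147, 1287 ± 103 and 371 ± 51.3 CPM (n = 5) in miR-501KO mice. Col5a3, singled out after its values were seen, had the smallest p of the fibrillar class. It stood at 271, 242, 319, 385 and 366 CPM in Pax7Cre and at 325, 310, 385, 410 and 426 CPM in miR-501KO mice. The highest miR-501KO animals passed the controls and the lowest lay among them, with a log2 fold change of 0.23 (SE 0.141, edgeR p = 0.127; exact permutation p = 0.167).

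Col2a1, Col11a1 and Col11a2 are the fibrillar collagens of cartilage. Col11a1 had a mean of 69.0 ± 28.1 CPM (SD, n = 5) in Pax7Cre and 64.0 ± 20.6 CPM (n = 5) in miR-501KO mice. Col11a2 stood at 10.7, 5.43, 14.5, 10.3 and 12.7 CPM in Pax7Cre and at 8.77, 8.02, 11.8, 5.40 and 8.31 CPM in miR-501KO mice. Its log2 fold change of −0.34 (SE 0.237, exact permutation p = 0.246) was among the lowest of all collagens, and the genotypes overlapped. Col2a1, the defining collagen of cartilage, was close to absent, at 0.851, 0.211, 0.581, 0.642 and 0.784 CPM in Pax7Cre and 0.680, 0.425, 0.833, 0.636 and 1.10 CPM in miR-501KO mice. Its log2 fold change of 0.25 (SE 0.338, exact permutation p = 0.468) was the second largest rise in value, with an interval from −0.48 to 0.99. It was 0.048 without Pax7Cre mouse 2 and 0.062 without miR-501KO mouse 5. Of the 6 other cartilage markers, Sox9, a transcription factor that other cells express too, lay between 7.43 and 16.7 CPM and Acan between 2.06 and 9.70 CPM, Matn3 did not pass 0.85 CPM, and Matn1, Hapln1 and Cnmd did not pass 0.371 CPM. Their sum was 10.3 CPM in Pax7Cre mouse 2, 13.8 to 26.2 CPM in the other controls and 13.5 to 17.4 CPM in miR-501KO mice. Col24a1 and Col27a1, less studied fibrillar chains, had means of 17.3 ± 3.01 and 43.7 ± 10.5 CPM (SD, n = 5) in Pax7Cre and 16.5 ± 2.98 and 48.1 ± 2.66 CPM (n = 5) in miR-501KO mice. Over the class, 6 log2 fold changes were above 0 and 5 below 0, with a median of 0.01 that ran from −0.07 (without Pax7Cre mouse 2) to 0.06 (without Pax7Cre mouse 4) when single mice were left out.

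Basement membrane collagens. Col4a1 and Col4a2 encode the chains of the type IV collagen found in every basement membrane. Col4a1 (chr8:11198423-11312826, minus strand) stood at 1017, 1045, 998, 1052 and 1272 CPM in Pax7Cre and at 876, 838, 1280, 1052 and 1168 CPM in miR-501KO mice. Mouse 5 stood above the other controls, the miR-501KO mice spread on both sides of them, and the log2 fold change was −0.05 (SE 0.135, exact permutation p = 0.714). Col4a2 (chr8:11312805-11449287, plus strand) stood at 706, 734, 649, 759 and 898 CPM in Pax7Cre and at 609, 601, 862, 753 and 819 CPM in miR-501KO mice, a log2 fold change of −0.04 (SE 0.131, exact permutation p = 0.77). Within each genotype the animals held the same rank for both genes. The chains of specialised basement membranes were far lower. Col4a5 stood at 9.90, 12.6, 12.4, 11.6 and 12.6 CPM in Pax7Cre and at 6.72, 8.07, 9.37, 12.1 and 13.4 CPM in miR-501KO mice, so that 3 miR-501KO mice lay below the controls and 1 above. The log2 fold change was −0.25 (SE 0.168, exact permutation p = 0.222). It was −0.38 without miR-501KO mouse 5 and −0.14 without miR-501KO mouse 1. Col4a6, the partner chain of Col4a5, had the largest rise in value of all collagens, with a log2 fold change of 0.30 (SE 0.304, exact permutation p = 0.302). This became 0.12 without Pax7Cre mouse 3 and 0.20 without miR-501KO mouse 5. It stood at 0.358, 0.633, 0.211, 0.682 and 0.637 CPM in Pax7Cre and at 0.560, 0.661, 0.583, 0.530 and 0.805 CPM in miR-501KO mice, so this value rests on a gene with 4 to 19 counts per mouse. Col4a3 and Col4a4, the chains of the basement membrane of the kidney glomerulus, had means of 0.707 ± 0.359 and 1.42 ± 0.511 CPM (SD, n = 5) in the controls. Of the 6 genes, 3 log2 fold changes were above 0 and 3 below 0, with a median of −0.0037. This median was 0.13 without Pax7Cre mouse 2, 0.11 without miR-501KO mouse 1 and −0.07 without Pax7Cre mouse 3, so its sign depended on single mice.

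FACITs. Col12a1 and Col14a1 encode FACITs that bridge type I fibrils, and Col16a1 encodes a related chain of fibril and cell contacts. Col14a1 stood at 302, 341, 386, 330 and 390 CPM in Pax7Cre and at 248, 283, 391, 273 and 320 CPM in miR-501KO mice. Lower values were found in 3 miR-501KO mice than in any control and a higher value in 1, with a log2 fold change of −0.21 (SE 0.126, edgeR p = 0.126; exact permutation p = 0.159). Without miR-501KO mouse 3, the animal above the controls, this log2 fold change was −0.315, and without miR-501KO mouse 1 it was −0.143. Col16a1 stood at 235, 162, 270, 288 and 302 CPM in Pax7Cre and at 222, 260, 305, 232 and 251 CPM in miR-501KO mice, a log2 fold change of 0.02 (SE 0.153, exact permutation p = 0.944). Col12a1 stood at 413, 136, 552, 584 and 526 CPM in Pax7Cre and at 442, 421, 560, 346 and 466 CPM in miR-501KO mice. Pax7Cre mouse 2 was the lowest of all the animals, and the log2 fold change was 0.02 (SE 0.297, exact permutation p = 0.968). Without that mouse it became −0.22. The type IX chains Col9a1, Col9a2 and Col9a3, which cover cartilage fibrils, had means under 3 CPM in both genotypes. Col9a2 had the largest fall in value of all collagens, with a log2 fold change of −0.37 (SE 0.28, exact permutation p = 0.246). This became −0.61 without miR-501KO mouse 3 and −0.25 without miR-501KO mouse 4. Col9a2 rests on 24 to 80 counts per mouse. It stood at 2.60, 1.58, 2.06, 3.21 and 3.18 CPM in Pax7Cre and at 1.48, 2.45, 3.16, 1.27 and 1.44 CPM in miR-501KO mice, so 3 miR-501KO mice lay below the lowest control and 2 within the control range. Col22a1, which marks the junction between muscle and tendon, was listed at 7.10 ± 2.37 CPM (SD, n = 5) and 7.92 ± 1.29 CPM (n = 5). Col19a1 and Col20a1 had means of 2.60 ± 0.671 and 3.63 ± 0.78 CPM (SD, n = 5) in Pax7Cre and 2.27 ± 0.104 and 4.29 ± 0.845 CPM (n = 5) in miR-501KO mice. Of the 9 genes, 5 log2 fold changes were above 0 and 4 below 0, with a median of 0.02. This median was −0.20 without Pax7Cre mouse 2 and ran from −0.08 (without miR-501KO mouse 3) to 0.09 (without Pax7Cre mouse 5) when another mouse was left out.

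Collagen VI. The chains Col6a1, Col6a2 and Col6a3 form the beaded filaments that link the basement membrane of the fiber to the surrounding matrix, and mutations in them cause congenital muscular dystrophy. Col6a1 stood at 1046, 875, 1212, 1251 and 1403 CPM in Pax7Cre and at 1105, 1102, 1320, 1173 and 1368 CPM in miR-501KO mice, a log2 fold change of 0.07 (SE 0.136, exact permutation p = 0.619). Col6a2 stood at 843, 797, 1031, 1068 and 1201 CPM in Pax7Cre and at 941, 991, 1127, 1026 and 1202 CPM in miR-501KO mice, a log2 fold change of 0.10 (SE 0.131, exact permutation p = 0.444). The 3 chains shared their pattern over the mice, with Pax7Cre mice 1 and 2 lowest and mouse 5 of each genotype highest. Col6a3 stood at 1124, 948, 1367, 1558 and 1726 CPM in Pax7Cre and at 1336, 1262, 1596, 1459 and 1767 CPM in miR-501KO mice, a log2 fold change of 0.14 (SE 0.167, exact permutation p = 0.421). Without Pax7Cre mouse 2 the log2 fold changes were −0.019 for Col6a1, 0.028 for Col6a2 and 0.038 for Col6a3. The alternative chains of this family were lower by far: Col6a6 had a mean of 35.1 ± 10.1 CPM (SD, n = 5) in Pax7Cre and 31.2 ± 6.83 CPM (n = 5) in miR-501KO mice. Col6a5 had means of 1.53 ± 0.393 and 1.40 ± 0.40 CPM, and Col6a4 of 0.740 ± 0.474 and 0.656 ± 0.308 CPM (SD, n = 5 each).

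The remaining classes. Col15a1 and Col18a1 encode the multiplexins, basement membrane proteoglycans whose ends can be cut off as restin and endostatin. Col15a1 stood at 274, 313, 263, 288 and 346 CPM in Pax7Cre and at 255, 240, 350, 305 and 335 CPM in miR-501KO mice, with a log2 fold change of 0.00 (SE 0.122, exact permutation p = 1.00). Col18a1 stood at 254, 167, 250, 341 and 307 CPM in Pax7Cre and at 280, 267, 292, 298 and 321 CPM in miR-501KO mice, with a log2 fold change of 0.14 (SE 0.155, exact permutation p = 0.452), which was 0.014 without Pax7Cre mouse 2 and 0.25 without Pax7Cre mouse 4. The miR-501KO mice were again tightly grouped within the control range for Col18a1. Col8a1 and Col8a2, which form hexagonal lattices, as in Descemet's membrane of the eye, had means of 128 ± 41.6 and 30.8 ± 12.1 CPM (SD, n = 5) in Pax7Cre and 131 ± 17.8 and 26.8 ± 8.02 CPM (n = 5) in miR-501KO mice. Col7a1, the anchoring fibril collagen of skin, stood at 20.4 ± 4.83 CPM and 20.7 ± 1.71 CPM (SD, n = 5 each). Col10a1 belongs to hypertrophic cartilage and was at or below 0.634 CPM in every mouse. The transmembrane collagens Col13a1, a component of the neuromuscular synapse, Col17a1, of hemidesmosomes, and Col25a1, which acts in motor innervation of muscle, all had means under 4 CPM. Col23a1, the fourth transmembrane collagen, had the smallest p of all 43 and is named for it after its values were seen. It stood at 23.8, 26.8, 28.4, 27.2 and 34.9 CPM in Pax7Cre and at 23.2, 22.8, 26.9, 22.9 and 26.7 CPM in miR-501KO mice. The low miR-501KO mice lay just below the lowest control and the others inside the control range, with a log2 fold change of −0.20 (SE 0.102, edgeR p = 0.0687; exact permutation p = 0.0556). Col26a1 and Col28a1 completed the set, Col28a1 at 6.49 ± 0.942 CPM and 5.89 ± 1.06 CPM (SD, n = 5 each). Of the 17 tested genes outside the fibrillar, basement membrane and FACIT classes, 8 log2 fold changes were above 0 and 9 below 0, with a median of −0.04 that ran from −0.09 (without Pax7Cre mouse 1) to 0.0095 (without Pax7Cre mouse 5).

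Pax7Cre mouse 2 had the lowest value of its group for 24 of 44 collagens and the highest for 4. Over all genes tested it was lowest for 27.6% and highest for 28.7%. By class it was lowest for 9 of 11 fibrillar collagens, 3 of 9 FACITs, 12 of 18 others and 0 of 6 basement membrane collagens. Its value relative to the mean of the other Pax7Cre mice was 0.261 for Col12a1, 0.278 for Col11a1, 0.336 for Col8a2, 0.419 for Col8a1 and 0.611 for Col1a1. It was 0.871 for Col3a1, 0.963 for Col4a1, 0.975 for Col4a2, 0.969 for Col14a1 and 1.07 for Col15a1, and it reached 2.23 for the barely expressed Col4a3. The deficit of this animal was uneven, deep in some fibrillar, FACIT and network collagens and small or missing in type III, type IV and type XV. Markers of mature fiber, a list of 10 genes, summed to 37714 CPM in this mouse and to between 14631 and 24355 CPM in the other controls, and the mouse was the highest control for 10 of 10. All 5 markers of regenerating fibers were at their lowest of the group in it. No FAP marker was lowest in it and 4 of 8 were highest, with a sum of 2512 CPM beside 1457 to 2387 CPM in the other controls. Tendon markers were lowest in it for 5 of 7, with values relative to the mean of the other controls from 0.333 for Tnmd to 0.974 for Comp over the 7, and summed to 936 CPM beside 1057 to 1243 CPM. Macrophage markers were lowest in it for 5 of 7 too, with a sum of 3444 CPM beside 3678 to 4783 CPM. This library also had the highest share of counts on mitochondrial genes, 14.0% beside 6.59% to 10.8% in the other controls, and the lowest TMM factor, 0.884. Endothelial markers summed to 816 CPM in it beside 660 to 803 CPM in the other controls, and Schwann cell markers to 62.6 beside 34.7 to 48.4 CPM. In the miR-501KO group, mouse 4 had the highest mitochondrial share (12.7%), the lowest TMM factor (0.942), the highest mature fiber sum (28157 CPM) and the lowest sums of regenerating fiber (2304 CPM) and tendon markers (897 CPM). It also had the lowest Col12a1 (346 CPM), Col11a1 (35.3 CPM), Col8a1 (107 CPM) and Col8a2 (17.8 CPM) of its group. The part of these differences in the collagen values was not tested. With this control left out, the log2 fold change of Col1a1 became −0.10 and that of Col11a2 −0.50. Col11a2 then reached an unadjusted p of 0.05, as did 3.12% of all genes, and the smallest adjusted p of any gene in that fit was 0.999 (edgeR). The Pax7Cre mean share of counts on collagens became 3.499%. Pax7Cre mouse 4 stood at the other end of the 10 mice in several of these traits. It had the lowest mitochondrial share (6.59%), the highest TMM factor (1.13), the lowest mature fiber sum (14631 CPM) and the highest Col1a1 (9450 CPM). Without Pax7Cre mouse 4 the log2 fold change of Col1a1 was 0.13, and 3.24% of all genes reached an unadjusted p of 0.05 (edgeR). The part of these traits in its collagen values was not tested.

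**Figure D3:**
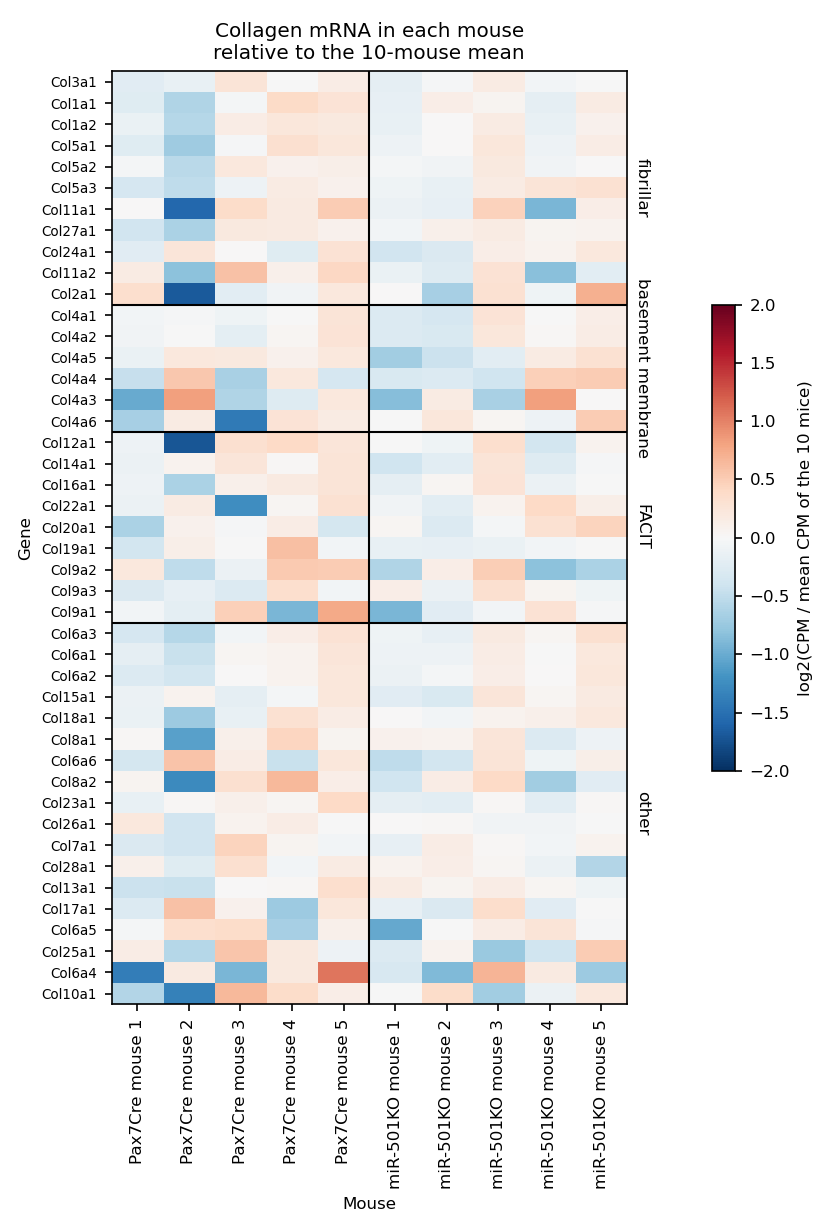
Log2 ratio of the CPM of each collagen (rows, by class and mean CPM) in each mouse (columns) to its mean over the 10 mice, red above and blue below the mean. Pax7Cre mouse 2 is blue over most fibrillar rows and for Col12a1, Col8a1 and Col8a2 and close to the mean for Col4a1 and Col4a2, and no block of colour separates the 5 Pax7Cre columns from the 5 miR-501KO columns.

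Ratios between chains were taken within each mouse, which removes what moves all chains alike. Of the 11 ratios computed, the lowest spread was found for Col4a1 over Col4a2, followed by Col6a1 over Col6a2, Col6a3 over Col6a1 and Col1a1 over Col1a2. These are chains that assemble together. Few pairs from different proteins were among the 11, so whether a low spread is particular to partner chains was not tested. Col4a1 over Col4a2 ran from 1.39 to 1.54 in CPM, with a coefficient of variation (CV) over the 10 mice of 3.25%, while the genes themselves varied by 13.9% and 13.7%. Col6a1 over Col6a2 ran from 1.10 to 1.24 (CV 3.45%) and Col6a3 over Col6a1 from 1.07 to 1.29 (CV 6.24%). Col1a1 over Col1a2 ran from 1.04 to 1.31 (CV 7.57%) and Col5a1 over Col5a2 from 0.908 to 1.27 (CV 11.2%), a wider spread than the other partner chains above. These values are ratios of reads and not of molecules, since the mRNAs differ in length. The CV was 16.7% for Col1a1 over Col3a1 and 20.97% for Col1a1 over Col4a1, chains of different proteins. It was 18.1% for the partner chains Col8a1 over Col8a2 and 26.7% for Col11a1 over Col5a1, chains of the related types XI and V. Means of the 2 genotypes were close for each of the tightest pairs, 1.44 ± 0.0581 and 1.43 ± 0.0376 for Col4a1 over Col4a2 and 1.17 ± 0.0508 and 1.15 ± 0.026 for Col6a1 over Col6a2 (SD, n = 5 each). The ratios of Col12a1 over Col14a1 and Col15a1 over Col18a1 stood apart in Pax7Cre mouse 2, at 0.397 and 1.87. Their CV over 10 mice was 27.8% and 26.3%, and it was 12.0% and 11.3% without that mouse.

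**Figure D4:**
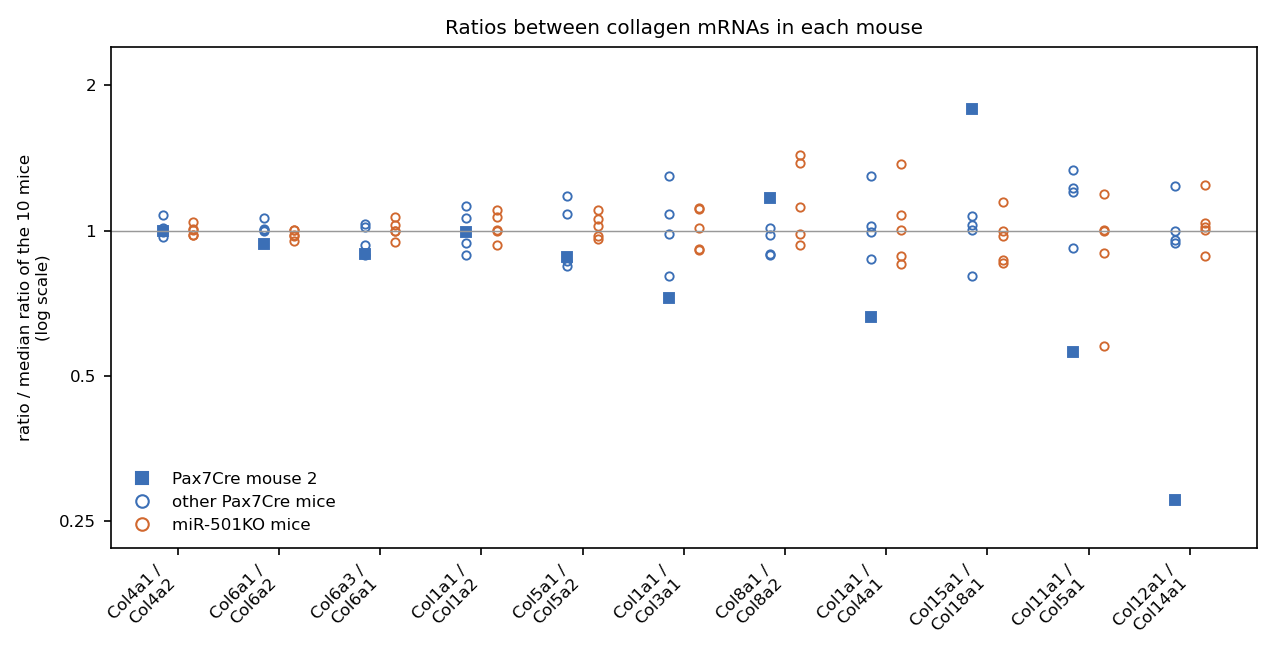
Ratio of CPM between pairs of collagens in each mouse divided by the median ratio of the 10 mice (log axis), with Pax7Cre mouse 2 as a filled square, the other Pax7Cre mice as blue circles and miR-501KO mice as orange circles. The points lie closest together for Col4a1 over Col4a2 and Col6a1 over Col6a2, and mouse 2 stands apart for Col15a1 over Col18a1 and Col12a1 over Col14a1.

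The genomic arrangement of the collagens, which their choice did not use, was set beside these ratios. The 44 genes lie on 15 chromosomes, and 8 pairs are neighbours within 100000 bases of each other. The type IV genes form 3 head-to-head pairs. Col4a1 and Col4a2 are transcribed away from each other on chromosome 8 and the annotated genes overlap by 22 bases at their starts, Col4a4 and Col4a3 lie 71 bases apart on chromosome 1, and Col4a6 and Col4a5 lie 1308 bases apart on chromosome X. The tight ratio was seen for the abundant pair. The CV of the ratio was 29.6% for Col4a4 over Col4a3 and 36.7% for Col4a6 over Col4a5, pairs in which at least 1 gene had a mean below 1 CPM and whose ratios rest on few counts. Col6a2 and Col6a1 lie 85161 bases apart on the same strand of chromosome 10 and had a ratio CV of 3.42%, taken as Col6a2 over Col6a1. Also on the same strand, Col6a6 over Col6a5 (27917 bases apart) had 20.9% and Col6a5 over Col6a4 (28810 bases) 59.7%. Col9a1 over Col19a1, tail to tail 9205 bases apart, had 39.1%. These 3 pairs hold genes of few counts, with Col6a5 at 1.47, Col6a4 at 0.698 and Col9a1 at 0.606 CPM. Col3a1 and Col5a2 lie tail to tail 24614 bases apart on chromosome 1, with a ratio CV of 11.7%. Col1a1 and Col1a2 lie on chromosomes 11 and 6.

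Collagen chains need a long line of helpers, and 51 such genes were listed by role, of which 49 could be tested. None reached an adjusted p of 0.05 and none an unadjusted p of 0.05 in edgeR's test, beside 1.05% of all genes at the unadjusted threshold, so this count is near the background. Their log2 fold changes were above 0 for 31 of 49, or 63.3%, beside 47.9% of all genes tested, with a median of 0.02. This median was −0.05 without Pax7Cre mouse 2 and between 0.0031 and 0.07 without each other mouse. Among the 14 genes of chain hydroxylation and glycosylation in the endoplasmic reticulum, enzymes and their partner proteins, values ran from −0.18 for P3h2, a prolyl 3-hydroxylase, to 0.15 for P4ha2, a catalytic subunit of prolyl 4-hydroxylase. Among the 9 genes of folding and export they ran from −0.08 for Mia2 to 0.09 for Sec24d, both of the transport machinery that carries large cargo. Serpinh1, the collagen chaperone HSP47, lay between 517 and 1002 CPM. Of the proteases and enhancers that remove propeptides, Pcolce2 had −0.20 and Adamts3 0.29. Of the 5 crosslinking enzymes of the lysyl oxidase family, Loxl4 had −0.19 and Loxl2 0.19. Of the receptors, Itga1 had −0.11 and Itga10, the α10 integrin subunit that binds collagen, had 0.39 (SE 0.181, edgeR p = 0.0504; exact permutation p = 0.0873), the smallest p of the 49. Itga10 lay close to the unadjusted threshold and passed it in several of the alternative fits given below. Of the proteases that cut collagens, Mmp9 had −0.34 (SE 0.295, exact permutation p = 0.373) and Mmp13 0.27 (SE 0.199, exact permutation p = 0.294). Pax7Cre mouse 2 was the lowest control for 12 of 14 hydroxylation and glycosylation genes, 6 of 9 of folding and export, 5 of 8 of propeptide removal, 4 of 5 of crosslinking, 5 of 10 receptors and 3 of 5 proteases, beside 27.6% of all genes tested. The summed level of the hydroxylation and glycosylation list was 1142 CPM in it and 1540 to 1716 CPM in the other controls, and that of the crosslinking list 424 CPM beside 666 to 972 CPM.

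Whole muscle holds several sources of collagen mRNA, so Col1a1 and Col4a1 were set beside the summed CPM of markers of FAPs, endothelial cells and mature fibers over the 10 mice, in 6 relations. None passed an adjusted p of 0.05 (permutation tests, Benjamini-Hochberg over the 6). Col1a1 was lower where FAP markers were higher (Pearson r = −0.73, permutation p = 0.0191, adjusted p = 0.0718; Spearman rho = −0.64, permutation p = 0.0532, adjusted p = 0.16). Without the animals farthest from the median of the markers, Pax7Cre mice 2 and 3, r was −0.60. Col1a1 was also lower where mature fiber markers were higher (r = −0.67, permutation p = 0.0359, adjusted p = 0.0718; rho = −0.35, permutation p = 0.332, adjusted p = 0.418), but without Pax7Cre mice 2 and 4 r was 0.20, so this relation rests on those animals. Col4a1 was higher where endothelial markers were higher (r = 0.69, permutation p = 0.0293, adjusted p = 0.0718; rho = 0.65, permutation p = 0.0496, adjusted p = 0.16), and r was 0.68 without Pax7Cre mouse 2 and miR-501KO mouse 3. The deviations from the genotype means gave −0.72, −0.71 and 0.68 for these relations. The others were r = −0.42 (permutation p = 0.226, adjusted p = 0.339; rho = −0.36, permutation p = 0.314) for Col1a1 with endothelial markers, r = 0.0019 (permutation p = 0.996; rho = −0.15, permutation p = 0.682) for Col4a1 with FAP markers and r = 0.22 (permutation p = 0.546; rho = 0.33, permutation p = 0.348) for Col4a1 with mature fiber markers. No single marker gene of the lists reached an unadjusted p of 0.05 between the genotypes in edgeR's test, beside 1.05% of all genes, and the lists as such were not tested. Log2 fold changes were above 0 for 9 of 10 mature fiber, 6 of 6 myogenic progenitor, 1 of 8 FAP and 1 of 7 endothelial markers, beside 47.9% of all genes tested. They were above 0 for 4 of 7 macrophage, 3 of 6 Schwann cell, 3 of 5 regenerating fiber and 3 of 8 mural (vessel wall) markers. Of the cartilage and bone markers tested, 0 of 3 and 0 of 2 were above 0. Genes of a list can move together over the same mice, so these counts are not of separate observations. The median log2 fold change was −0.08 for the 8 FAP markers, −0.06 for the 7 endothelial markers and 0.05 for the 10 mature fiber markers. The 7 tendon markers, of which 2 were above 0, summed to 936 to 1243 CPM in Pax7Cre and 897 to 1257 CPM in miR-501KO mice, where Pax7Cre mouse 2 and miR-501KO mouse 4 were lowest. Of the 5 bone markers, Alpl lay between 5.13 and 12.9 CPM and Sp7 between 0.897 and 4.01 CPM, while Ibsp, Bglap and Phex stayed below 0.80 CPM.

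**Figure D5:**
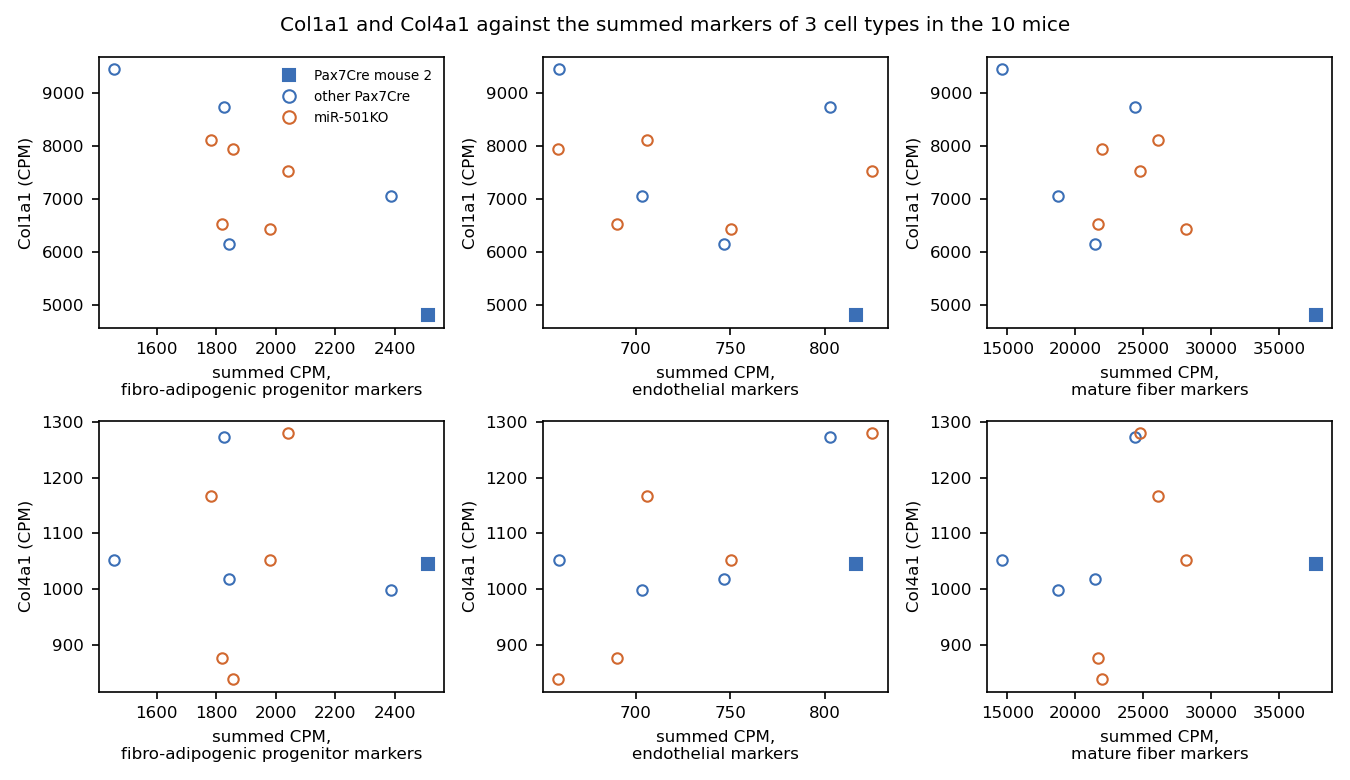
CPM of Col1a1 (top) and Col4a1 (bottom) against the summed CPM of FAP, endothelial and mature fiber markers, with 1 point per mouse (filled square, Pax7Cre mouse 2; blue circles, other Pax7Cre mice; orange circles, miR-501KO mice). Pax7Cre mouse 2 sits at the low end of Col1a1 and at the high end of the FAP and mature fiber sums, and Col4a1 is higher in the mice with higher endothelial sums.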

How the data were processed

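RNA was extracted with TRIzol from whole TA muscle, and libraries were made with the TruSeq Stranded mRNA kit and sequenced as 100 bp single-end reads on a NovaSeq. The authors aligned reads with STAR. The deposited files hold raw counts per Ensembl gene for each mouse, and the submitters' processing notes name featureCounts, R 3.5.1 and GRCm38.p5. The strand setting and the treatment of reads with several matches are not given in the sources used here, so reads of genes that overlap on opposite strands (Col4a1 and Col4a2 at their starts, Col9a3 with Tcfl5, Col18a1 with Slc19a1, Col10a1 with Nt5dc1) may not be separated. Symbols, coordinates and lengths were taken from GENCODE M21, in which 25587 of 25700 genes had a symbol.

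Counts of all genes were fitted together with edgeR 4.0.16 (R 4.3.3), with TMM factors, filterByExpr at 10 counts, the quasi-likelihood test, and genotype as the single factor. P-values were adjusted by the Benjamini-Hochberg method over 14410 genes. CPM values are TMM-normalized. Depth ran from 18609222 to 24753258 counts, and the biological coefficient of variation was 0.149. Exact permutation tests had 252 regroupings and a smallest p of 0.00794. The test was tried on simulated counts of the 14327 genes kept there: 90.9% of genes changed by a log2 fold change of 1 and 46% of those changed by 0.5 were called. Counts were drawn once and for each gene apart, without shifts that many genes share in a mouse. These shares are therefore not the power of the collagen comparison. Alternatives were DESeq2 1.42.0 and its size factors, TMM without collagens, other count filters, the likelihood ratio test, limma voom (3.58.1), robust dispersion, a replicate block and leaving out each mouse.

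The collagens, their classes and the pathway and marker lists were chosen with earlier results of these data known. Values in every mouse were given for the genes highest per kilobase in each class (3 in each named class, 5 in the others together), for the 2 largest rises and the 2 largest falls, and for genes passing an unadjusted p of 0.05 or with separate genotypes, of which there were 0. Pathway genes were named for the largest rise or fall of their list. Other genes named were chosen after their values were seen. Each mouse is a separate animal.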

Additional observations from a re-analysis of the deposited data

Results flagged for a closer look

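In 3 of 130 groups of 5 mice searched, the value of 1 mouse stood far from the other 4 by Dixon's criterion (a gap over the range above 0.71), where chance alone gives about 1 in 20 groups, or 6.5. Col4a1 stood at 1272 CPM in Pax7Cre mouse 5, beside 998 to 1052 CPM in the other controls. Col5a2 stood at 1465 CPM in miR-501KO mouse 3, beside 1220 to 1286 CPM in the other miR-501KO mice. The ratio of Col15a1 to Col18a1 was 1.87 in Pax7Cre mouse 2, beside 0.843 to 1.13 in the other controls. The number found is below the number that chance gives. For no single collagen, Col12a1 included, was Pax7Cre mouse 2 the far animal by this criterion.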

How the results depend on the processing

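No collagen and no pathway gene passed an adjusted p of 0.05 under any of the 9 alternatives or the 10 fits that left out a mouse. At an unadjusted p of 0.05, leaving out single mice gave from 0 to 2 collagens and from 0 to 3 pathway genes: Col23a1 was lower without Pax7Cre mouse 1 (1.33% of all genes passed), Col11a2 lower without Pax7Cre mouse 2 (3.12%), Col5a3 higher without Pax7Cre mouse 4 (3.24%), Col9a2 and Col14a1 lower without miR-501KO mouse 3 (1.18%), and Col4a5 lower without miR-501KO mouse 5 (0.911%). The pathway genes were Mmp9, lower without Pax7Cre mouse 2, Adamts14, P4ha2 and Ddr1, higher without Pax7Cre mouse 4, Mmp13, higher without miR-501KO mouse 3, and Itga10, higher without Pax7Cre mouse 3 (0.965%), Pax7Cre mouse 5 (181 of 14512 genes) or miR-501KO mouse 4 (0.985%). With the replicate block 3 collagens passed it (Col5a3 higher, Col23a1 and Col14a1 lower) and 1 pathway gene, beside 1.31% of all genes. The names of the mice give only a number, and whether equal numbers mark a pair is not stated. The correlation of deviations between mice of the same number ran from −0.30 to 0.34, and 3 of 5 numbers correlated best with their own. Itga10 passed it as the 1 pathway gene with the DESeq2 Wald test, likelihood ratio test, limma voom and robust dispersion, and no count filter gave 2 (Itga10 and Gp6), in fits where 1.04% to 1.57% of all genes passed. Over all genes, the counts at that threshold moved from 55 higher and 96 lower to 267 and 186 without Pax7Cre mouse 2 and to 228 and 242 without Pax7Cre mouse 4.

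Of the 18 collagens given mouse by mouse under the naming rule, 9 kept the sign of their log2 fold change under every alternative tried and 9 did not, and 35 of the 340 alternative values of the 18 genes were opposite. Opposite signs came from leaving out single mice, with ranges of −0.105 to 0.129 (Col1a1), −0.119 to 0.0601 (Col1a2), −0.0893 to 0.0361 (Col3a1), −0.131 to 0.0223 (Col4a1), −0.107 to 0.0333 (Col4a2), −0.217 to 0.136 (Col12a1), −0.108 to 0.0903 (Col16a1), −0.0643 to 0.0692 (Col15a1) and −0.0192 to 0.147 (Col6a1). Without single mice, Col2a1 ran from 0.0483 to 0.399, Col6a2 from 0.0279 to 0.178, Col6a3 from 0.0377 to 0.249, Col18a1 from 0.0145 to 0.253, Col4a6 from 0.125 to 0.449, Col4a5 from −0.384 to −0.136, Col14a1 from −0.315 to −0.143, Col9a2 from −0.611 to −0.252 and Col11a2 from −0.505 to −0.212. With limma voom and the replicate block Col1a2 was 0.0236 and 0.0204 and Col15a1 −0.0086 and −0.0074, and requiring 10 counts in each of the mice gave −0.0026 for Col15a1. The correlation of Col1a1 with mature fiber markers was 0.20 without the farthest mice, and that of Col4a1 with FAP markers −0.019 as deviations from genotype means. In totals without mitochondrial genes the miR-501KO share of counts was 3.54% for all collagens, 2.71% for fibrillar and 0.513% for the other classes, beside 3.57%, 2.76% and 0.489% in Pax7Cre. The causes of these shifts were not tested, beyond the smaller total in the last. Genes under 10 CPM are limited by counts, with 3 to 13 per mouse for Col10a1.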
